A study of Mus musculus with 6 samples.

Results

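Complex I of the respiratory chain, NADH:ubiquinone oxidoreductase, was examined through its nuclear genes, taken as the protein-coding genes whose mouse symbol begins with Nduf. The rule found 46 genes among the 17193 Ensembl gene identifiers listed, of which 17090 had a symbol. They comprised 7 core subunits, 29 accessory subunits, 8 assembly factors (Ndufaf genes) and the pair Ndufa4 and Ndufa4l2. Ndufb1 was not analysed here. Expression was measured by RNA sequencing in 6 libraries of astrocytes taken from the brain of wild type C57BL/6 mice aged 3 month, with 3 libraries in the Mock group and 3 in the Quinpirole group. Quinpirole is an agonist of dopamine D2-type receptors. By the authors' account it was given to the mice before the astrocytes were isolated. The cells had been isolated with microbeads against the astrocyte surface antigen ACSA-2. Nothing in the labels ties a library to an animal, so p-values measure only the spread between these libraries. The values are FPKM, fragment numbers scaled to the size of the library and the length of the transcript, so that levels can be compared between genes. Fold changes are on the log2(FPKM + 1) scale, which understates changes of low values. In bulk samples, fewer cells of a type and less RNA per cell cannot be told apart.

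Complex I takes electrons from NADH, passes them through a flavin and a chain of iron-sulfur clusters to ubiquinone, and pumps protons across the inner mitochondrial membrane. Its catalytic core is made of nuclear subunits, among them those encoded by Ndufv1 and Ndufs1, together with membrane subunits encoded by mitochondrial DNA. Accessory subunits surround the core, and assembly factors build the NADH, quinone and membrane modules without staying in the finished enzyme. Astrocytes have respiring mitochondria but also draw much of their energy from glycolysis.

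Of the 46 genes, 45 passed the requirement of a mean of at least 1 FPKM over the 6 libraries, and 12255 genes passed it in all. After quinpirole 8 of the 45 rose and 0 fell at an adjusted p under 0.05 in limma, whereas 10.9% of all tested genes changed, 5.74% rising and 5.18% falling. At an unadjusted p under 0.05, 23 of the 45 were higher and 0 lower, when 17.3% of all tested genes were higher and 14% lower. The mean was higher after quinpirole for 44 of 45 genes as deposited, against 53.8% of all tested genes, and for 34 (51.8% of all tested genes) once the relation of fold change to gene length had been removed. Scaling the libraries to the same FPKM total left 38 of 45 with a higher mean (35.4% of all tested genes), and quantile normalization left 40 (52.5%). For 19 genes the 3 Quinpirole values all lay above the 3 Mock values, against 20% of all tested genes, and for 0 genes all below them, against 16.9%. The Nduf genes were thus separated upward more often than genes at large, while each change was small. The median log2 fold change was 0.16 over the 45 genes and 0.02 over all tested genes.

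**Figure D1:**
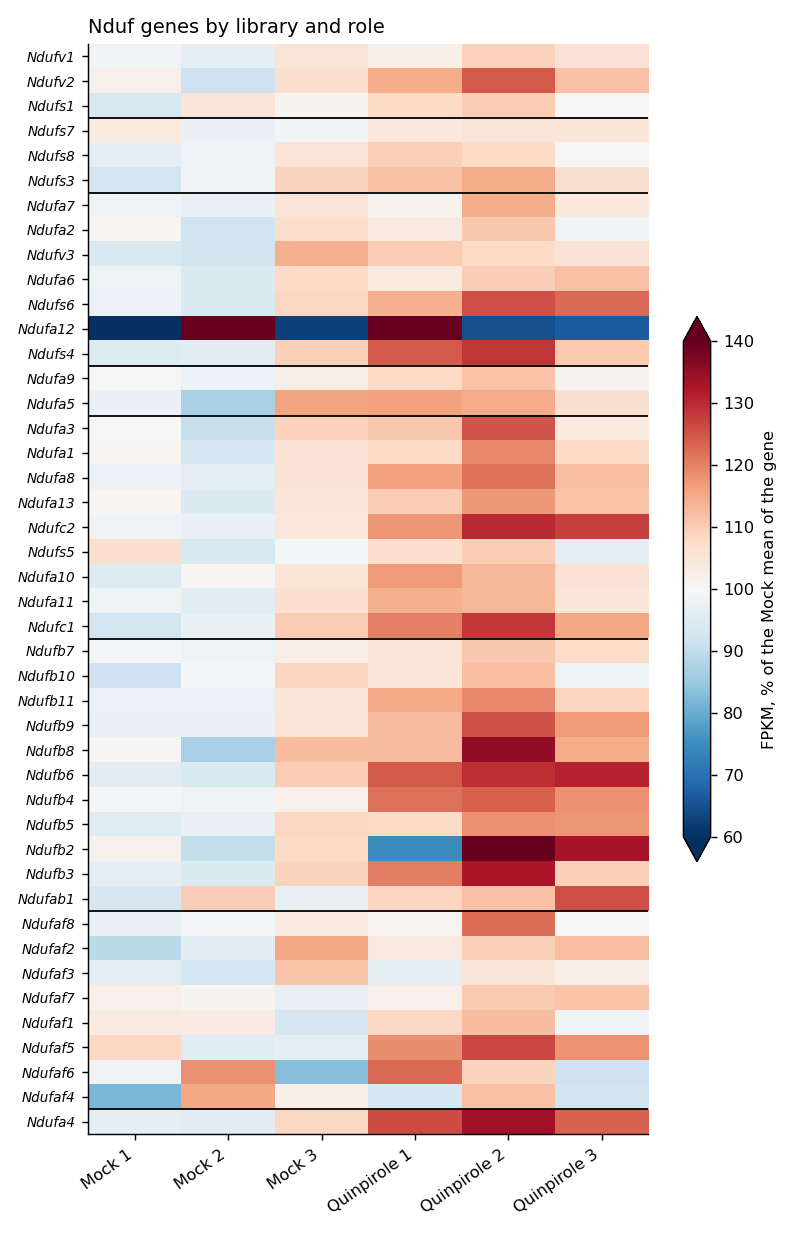
FPKM of 44 of the 45 tested Nduf genes in each library (columns) as a percentage of the Mock mean of the gene, in rows grouped by role and ordered within a role by mean FPKM, with black lines between core NADH, core quinone, accessory NADH, accessory quinone, proximal arm, distal arm and assembly factor genes and Ndufa4. The Quinpirole columns are redder than the Mock columns for most genes, with Quinpirole 2 highest of its group for 33 and Mock 3 highest of its group for 35 of the 45. Ndufa12, and Ndufb2 in Quinpirole 2, run outside the colour range.

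The libraries of a group were not alike for these genes. Summed FPKM over the 46 genes was 2626, 2619 and 2836 in the Mock libraries and 3023, 3171 and 2929 in the Quinpirole libraries. The groups did not overlap, and Mock 3 and Quinpirole 3 lay closest to each other. As a share of the FPKM total of the library, the sum was 0.654%, 0.651% and 0.686% in Mock and 0.709%, 0.725% and 0.689% in Quinpirole, so that on this scale Mock 3 and Quinpirole 3 nearly met. The library totals themselves ran from 401769 to 413730 in Mock and from 425244 to 437164 in Quinpirole. With the totals made equal, 4 Nduf genes rose (Ndufa4, Ndufb4, Ndufb6 and Ndufc2). Of the 12255 tested genes 220 rose, and 11.9% were called in either direction. At equal totals 12 Nduf genes were separated against 8.91%, the median log2 fold change was 0.08 and that of all tested genes was -0.06. Quantile normalization left the same 4 genes called, when 2.31% of all tested genes rose and 6.39% were called in either direction. At equal totals 15.1% of the calls over all genes were higher, against 52.6% as deposited and 36.1% after quantile normalization.

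Calls depended on single libraries. Leaving out Mock 3, the Mock library with the highest Nduf levels, 13 Nduf genes rose when 9.91% of all tested genes were called (669 higher and 546 lower). In that fit 34 of 45 were separated when 27.9% of all tested genes were. Without Quinpirole 3 only Ndufb4 rose, when 1.71% of all tested genes were called (84 higher and 126 lower). Without Mock 1, Mock 2, Quinpirole 1 or Quinpirole 2, 0 Nduf genes passed limma's threshold, with 16, 16, 20 and 15 of 45 at an unadjusted p under 0.05, when 24.9%, 23.6%, 27.5% and 24.3% of all tested genes were under it in either direction. Few genes of any kind passed the adjusted threshold in those fits, at 0.049%, 0.0245%, 0.0898% and 0.204% of all tested genes. Between 42 and 45 Nduf genes had a higher mean when any library was left out.

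None of the 7 core subunits passed the threshold in limma, against 10.9% of all tested genes. Of the 7, 3 were higher at an unadjusted p under 0.05, against 17.3% of all tested genes. All 7 had a higher mean after quinpirole, against 53.8% of all tested genes, and their median log2 fold change was 0.08. Scaled to equal library totals, Ndufs7 and Ndufs8 turned lower, when 35.4% of all tested genes had a higher mean, and the core median was 0.00. After the length correction 5 of the 7 were higher, against 51.8% of all tested genes. Ndufv2, a NADH-module subunit that carries an iron-sulfur cluster, had the largest log2 fold change of the core. It was at 39.1, 35.2 and 40.8 FPKM in Mock and 44.1, 47.7 and 42.9 FPKM in Quinpirole. These groups did not overlap, and the log2 fold change was 0.22 (SE 0.065, adjusted p = 0.0662). Ndufs7, which holds the last iron-sulfur cluster before ubiquinone, was separated by less than 1 FPKM between the nearest libraries, at 107, 100.4 and 102 FPKM in Mock and 108, 109 and 108 FPKM in Quinpirole (log2 fold change 0.07, SE 0.036, adjusted p = 0.246).

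Ndufv1, Ndufs1, Ndufs3 and Ndufs8 overlapped between the groups. Ndufv1, which binds NADH and the flavin, was at 59.3, 57.6 and 63.2 FPKM in Mock and 61.5, 65.6 and 63.5 FPKM in Quinpirole. Ndufs1, the largest nuclear core subunit and a carrier of several iron-sulfur clusters, was at 33.2 ± 1.95 and 35.1 ± 1.75 FPKM (SD, n = 3). Ndufs3, a quinone-module subunit without a cluster, was at 54.8 ± 4.57 and 60.8 ± 2.42 FPKM, and 39.7% of the 50-base words of its principal transcript also occur in transcripts of Gm11927, Gm12251 or Kbtbd4. Ndufs8, another cluster carrier, was at 64.5 ± 3.10 and 68.2 ± 3.34 FPKM. The log2 fold changes of these 4 genes lay between 0.08 and 0.15, with adjusted p from 0.156 to 0.372 in limma.

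**Figure D2:**
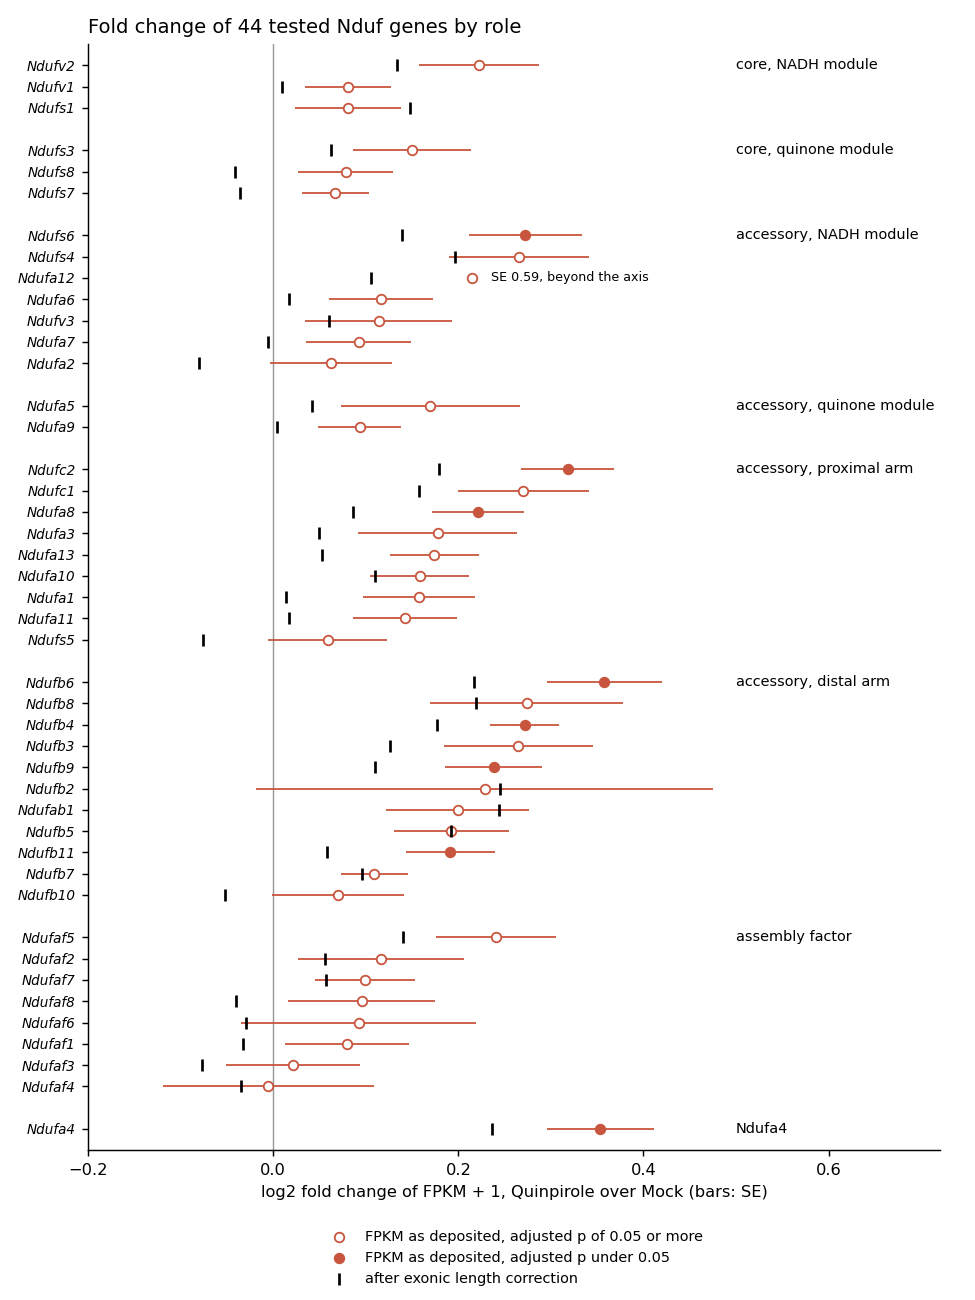
log2 fold change of FPKM + 1, Quinpirole over Mock (horizontal axis), of 44 of the 45 tested Nduf genes in rows by role, as circles with bars of 1 SE, filled where the adjusted p was under 0.05, and as black ticks after the exonic length correction. As deposited all circles but that of Ndufaf4 lie above 0, whereas 11 of the 44 ticks lie below 0, and the distal arm has the most filled circles (4 of 11).

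Accessory subunits of the membrane arm held 6 of the 8 genes that rose. Of all tested genes, 5.74% rose and 20% were separated upward. Of the 11 genes of the distal arm, 4 rose (Ndufb4, Ndufb6, Ndufb9 and Ndufb11), 6 were separated between the groups and the median log2 fold change was 0.23. Of the 9 genes of the proximal arm, 2 rose (Ndufa8 and Ndufc2), 6 were separated and the median was 0.17. Among the 7 accessory genes of the NADH module only Ndufs6 rose, with a median of 0.12, and neither of the 2 of the quinone module (Ndufa5 and Ndufa9) passed the threshold, with values of 0.17 and 0.09. After the length correction the medians were 0.18 for the distal arm, 0.05 for the proximal arm, 0.06 for the accessory NADH module and 0.04 for the core. Within the core the NADH module was at 0.13 and the quinone module at 0.00. In that fit 2 distal-arm and 0 proximal-arm genes rose, against 2.2% of all tested genes. With the principal transcript length the distal-arm median was 0.13 and 0 of its 11 genes rose, against 1.13%. The distal arm had the highest of these medians as deposited and after the length correction, although the differences between the groups of genes were not tested. Summed FPKM of the distal arm was 651, 648 and 713 in Mock and 739, 822 and 760 in Quinpirole, while that of the 7 core genes was 463, 462 and 485 against 507, 524 and 491.

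Ndufb4, a membrane subunit of the distal arm, had the smallest p of the 45. It was at 35.4, 35.3 and 36.5 FPKM in Mock and 43.6, 44.2 and 42.3 FPKM in Quinpirole, and both groups were tight. The log2 fold change was 0.27 (SE 0.037, adjusted p = 0.0225) and after the length correction 0.18 (adjusted p = 0.0391). The gene lies at chr16:37647170-37654453 on the minus strand (GRCm38), and 37% of the 50-base words of its principal transcript are shared with Gm16056, Gm20519 or Ndufb4c, so part of its reads could belong to those copies. Ndufb6, another distal-arm membrane subunit, had the largest fold change of the subunits, at 57.3, 56.1 and 65.8 FPKM in Mock and 74.4, 77.4 and 78.1 FPKM in Quinpirole. Its log2 fold change of 0.36 (SE 0.062, adjusted p = 0.0251) became 0.22 after the length correction (adjusted p = 0.0473). It lies at chr4:40270591-40279421 on the minus strand, where 39% of its exonic bases overlap the antisense gene Smim27. The library kit named in the labels does not keep strand, so reads of the pair cannot be told apart there.

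Ndufb9 and Ndufb11 rose less. Ndufb9, a protein with the LYR motif that docks an acyl carrier protein, was at 78.1, 78.3 and 84.4 FPKM in Mock and 90.1, 101 and 93.8 FPKM in Quinpirole (log2 fold change 0.24, SE 0.053, adjusted p = 0.0377), and 23.4% of the words of its transcript are shared with the overlapping gene Gm49356. Ndufb11, an X-linked distal-arm subunit, was at 82.2, 82.1 and 88.2 FPKM in Mock and 97.0, 100.3 and 91.5 FPKM in Quinpirole (log2 fold change 0.19, SE 0.048, adjusted p = 0.048), with 17.5% of its words shared with Gm6444 or the antisense gene Rbm10. In both genes the highest Mock library was Mock 3. Neither passed the threshold after the length correction, with adjusted p of 0.0966 and 0.277.

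Ndufc2 and Ndufa8, on the proximal side of the membrane arm, were free of words shared with other genes. Ndufc2 was at 79.0, 77.8 and 83.9 FPKM in Mock and 94.4, 104 and 102 FPKM in Quinpirole (log2 fold change 0.32, SE 0.050, adjusted p = 0.0236). Ndufa8, a cysteine-rich subunit facing the intermembrane space, was at 83.1, 81.9 and 89.9 FPKM in Mock and 99.0, 103 and 95.3 FPKM in Quinpirole (log2 fold change 0.22, SE 0.049, adjusted p = 0.0382). The gap between the nearest libraries was wider for Ndufc2 than for Ndufa8. After the length correction the values were 0.18 (adjusted p = 0.0514) and 0.09 (adjusted p = 0.123). Ndufs6, a zinc-binding subunit of the NADH module, was at 64.0, 61.6 and 70.8 FPKM in Mock and 74.8, 82.4 and 80.4 FPKM in Quinpirole, a log2 fold change of 0.27 (SE 0.061, adjusted p = 0.0383) that was 0.14 after the length correction (adjusted p = 0.103). Its transcript shares 14.6% of its words with Ndufs6b. Just outside the threshold were Ndufc1, a proximal-arm subunit (adjusted p = 0.0519), and the assembly factor Ndufaf5 (adjusted p = 0.0543).

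**Figure D3:**
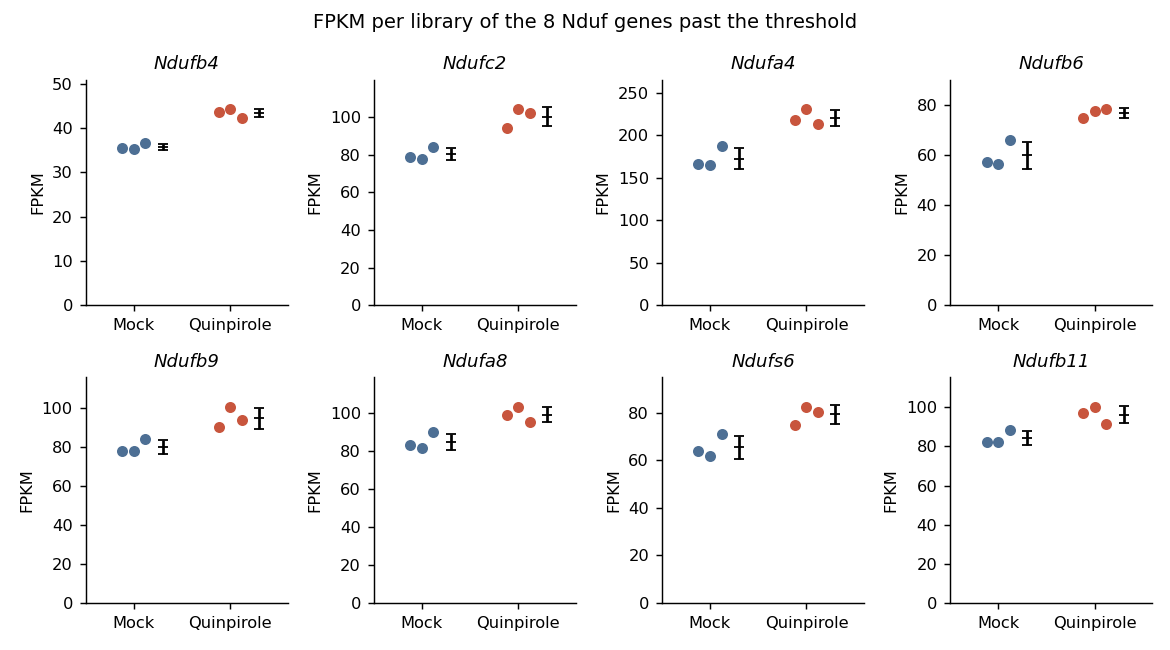
FPKM (vertical axes, from 0) of the 8 Nduf genes with an adjusted p under 0.05, with 1 point per library and beside each group its mean and SD over 3 libraries. In every panel the 3 Quinpirole points lie above the 3 Mock points, with mean differences from 14.3% for Ndufb11 to 28.3% for Ndufb6.

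Ndufa4 bears the name of a complex I subunit but is now known as a subunit of cytochrome c oxidase, complex IV. It had the highest mean of the 46 genes, at 166, 165 and 187 FPKM in Mock and 217, 230 and 213 FPKM in Quinpirole. No Quinpirole library came near a Mock library, and the log2 fold change was 0.35 (SE 0.058, adjusted p = 0.0246). It was the single gene of the 45 past the threshold under each of the 3 corrections for length, at 0.24 for exonic length (adjusted p = 0.0314) and 0.21 for the length of the principal transcript (adjusted p = 0.0413). Ndufa4l2, a relative known to be induced in hypoxia, was listed at 0, 0 and 0.123 FPKM in Mock and 0.0395, 0.0820 and 0 FPKM in Quinpirole and was not tested. Ndufa7, an accessory subunit of the NADH module, had the second highest mean, at 155 ± 7.06 FPKM in Mock and 166 ± 10.9 in Quinpirole (SD, n = 3), with a log2 fold change of 0.09 (adjusted p = 0.304) that was -0.01 after the length correction and after quantile normalization.

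The assembly factors were expressed at lower levels than the subunits. None of the 8 passed the threshold, against 10.9% of all tested genes. Their means ran from 4.09 to 18.1 FPKM, whereas the 36 subunits summed to between 2375 and 2850 FPKM in a library and the 8 factors to between 76.9 and 90.0. The median log2 fold change of the factors was 0.09, with 7 of 8 higher (53.8% of all tested genes). After the length correction it was -0.03, with 3 of 8 higher (51.8% of all tested genes). Ndufaf5, which hydroxylates Ndufs7, was the only separated factor, when 20% of all tested genes were separated upward. It was also the only factor with an unadjusted p under 0.05, when 17.3% of all tested genes were higher at that level. Ndufaf5 was at 6.47, 5.69 and 5.75 FPKM in Mock and 7.08, 7.56 and 7.05 FPKM in Quinpirole (log2 fold change 0.24, SE 0.065, adjusted p = 0.0543). Its partner Ndufaf8 was at 17.5 ± 0.581 and 18.8 ± 2.24 FPKM (SD, n = 3).

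For the remaining factors the groups overlapped. Ndufaf1, of the membrane-arm assembly complex, Ndufaf7, a methyltransferase, and Ndufaf6, needed for building the membrane arm, had log2 fold changes of 0.08, 0.10 and 0.09. Ndufaf2, an assembly factor related to Ndufa12, was at 14.9 ± 2.05 and 16.1 ± 0.639 FPKM (SD, n = 3), and 65.6% of its exonic bases overlap the antisense gene B230220B15Rik. Ndufaf3 and Ndufaf4, which act together early in assembly, had values of 0.02 and -0.01. Of the 45 tested genes, Ndufaf4 had the lowest mean and was the only one with a lower mean after quinpirole as deposited. It turned to 0.03 after quantile normalization. The adjusted p of the factors other than Ndufaf5 ran from 0.253 to 0.981 in limma.

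Ndufa12 and Ndufb2 were picked out after their values were seen, because they had the widest spread of the 45 genes within the Quinpirole group. Ndufa12, an accessory subunit of the NADH module, was at 23.6, 78.8 and 27.0 FPKM in Mock and 98.6, 27.96 and 28.8 FPKM in Quinpirole. Mock 2 and Quinpirole 1 thus stood far above the other libraries, without regard to group, and the coefficient of variation was 71.7% in Mock and 78.3% in Quinpirole. The medians over the 45 genes were 7.15% and 5.06%. Ndufb2, a distal-arm subunit, was even in Mock at 32.6, 28.9 and 34.4 FPKM but was at 23.9, 51.9 and 42.5 FPKM in Quinpirole, a coefficient of variation of 36.1%. Their log2 fold changes of 0.22 (SE 0.59) and 0.23 (SE 0.25) were within this spread, with adjusted p of 0.830 and 0.562 in limma. Ndufa12 has transcripts of 428, 566, 1110 and 1386 bases in GENCODE and shares 26.2% of the words of its principal transcript with Gm15920. Ndufb2 has transcripts from 422 to 4371 bases. Whether the FPKM of these genes moved with the transcript length the authors' program assigned was not tested.

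**Figure D4:**
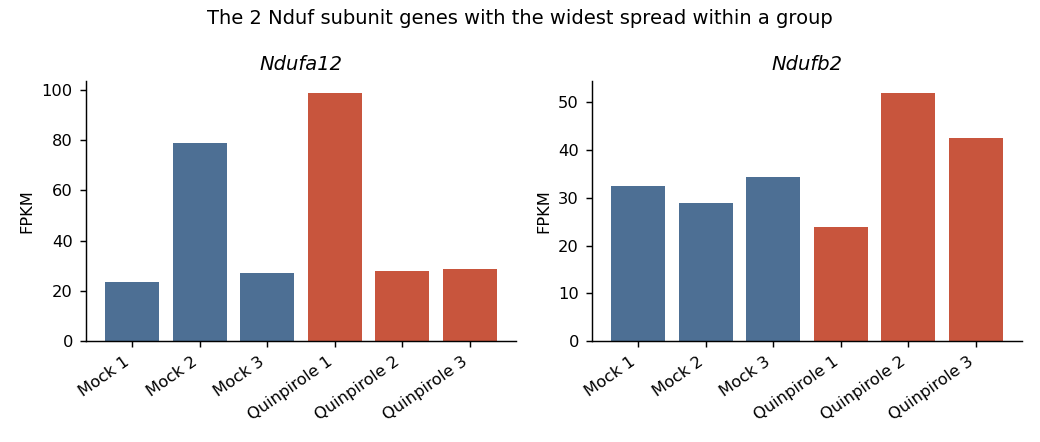
FPKM (vertical axes, from 0) of Ndufa12 and Ndufb2 in each of the 6 libraries, 1 bar per library, Mock in blue and Quinpirole in red. Ndufa12 is high in Mock 2 (78.8) and Quinpirole 1 (98.6), and Ndufb2 ranges from 23.9 in Quinpirole 1 to 51.9 in Quinpirole 2.

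Gene length moved with these results. Over all tested genes with a length, fold change fell with exonic length (Spearman's rho -0.47 across 12223 genes, which are not independent replicates), from a median log2 fold change of 0.12 in the shortest of 5 equal classes to -0.11 in the longest. Of the 45 Nduf genes, 32 were in the shortest class, and within the 45 rho was -0.13 and turned to 0.29 after correction. With the trend on exonic length removed by a loess fit, 3 genes rose (Ndufa4, Ndufb4 and Ndufb6, all among the 8). Of all tested genes 2.2% then rose and 4.24% were called in either direction. After this correction 12 of 45 were separated against 16.9%, and the median was 0.06 against 0.01. With the length of the principal transcript in its place, 1 gene rose (Ndufa4) against 1.13% (2.3% in either direction), and 29 of 45 had a higher mean against 52.4%. With length and GC content both corrected, 2 genes rose (Ndufa4 and Ndufb4) against 1.42% (2.79% in either direction). Such a correction also removes any true change that follows length.

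**Figure D5:**
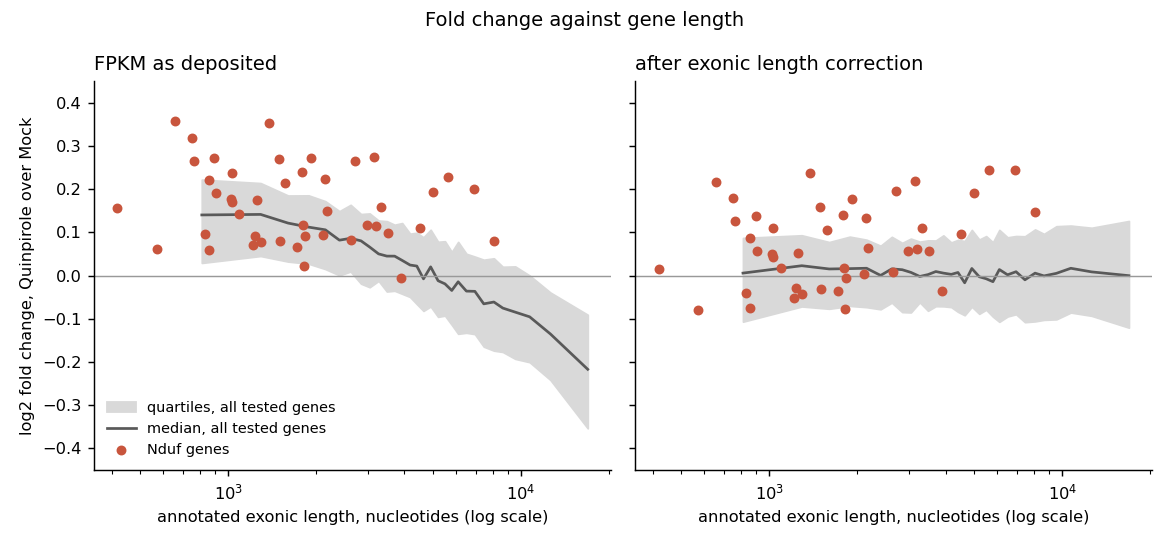
log2 fold change, Quinpirole over Mock (vertical axes), against annotated exonic length in nucleotides (horizontal axes, log scale), as deposited on the left and after the length correction on the right, with 44 of the 45 Nduf genes as red points and the median (line) and quartiles (grey band) of all tested genes in 30 bins of length. The line falls from 0.14 in the shortest bin to -0.22 in the longest on the left and stays near 0 on the right, where 33 of the 44 points lie above 0.

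Promoters of 4 of the genes that rose, chosen to show NRF1, YY1 and ETS matches and 1 window with none, are given because nuclear respiratory genes are known to be controlled in common by NRF1 (nuclear respiratory factor), by ETS-family factors such as GABP and by YY1. RefSeq windows of 300 bases, from 250 before to 50 after the annotated start (GRCm38.p6), were matched for 40 of the 46 genes. Ndufb9 was the gene among those that rose with no window. The motifs searched on both strands were a GCGC followed after any NN by another GCGC for NRF1, CCGGAAG for ETS factors, ATGGCGG for YY1 and TGACNNNGC for the antioxidant response element bound by Nrf2 (Nfe2l2). Capitals mark the matches in the windows below, at chr16:37654319-37654618, chr13:73328433-73328732, chr4:40279372-40279671 and chr6:11907401-11907700, all 5′ to 3′ on the minus strand.
Ndufb4: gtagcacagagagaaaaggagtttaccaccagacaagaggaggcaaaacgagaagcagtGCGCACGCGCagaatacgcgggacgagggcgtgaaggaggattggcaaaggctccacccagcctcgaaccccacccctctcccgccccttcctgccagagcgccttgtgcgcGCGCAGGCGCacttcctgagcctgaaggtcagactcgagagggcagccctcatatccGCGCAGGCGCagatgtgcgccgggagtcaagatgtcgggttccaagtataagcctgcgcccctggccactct
Ndufs6: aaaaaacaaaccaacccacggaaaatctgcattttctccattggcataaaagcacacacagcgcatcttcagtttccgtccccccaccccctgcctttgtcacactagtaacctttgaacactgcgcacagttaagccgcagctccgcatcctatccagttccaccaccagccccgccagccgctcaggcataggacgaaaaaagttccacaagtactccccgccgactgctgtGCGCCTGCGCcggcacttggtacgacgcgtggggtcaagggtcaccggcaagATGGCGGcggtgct
Ndufb6: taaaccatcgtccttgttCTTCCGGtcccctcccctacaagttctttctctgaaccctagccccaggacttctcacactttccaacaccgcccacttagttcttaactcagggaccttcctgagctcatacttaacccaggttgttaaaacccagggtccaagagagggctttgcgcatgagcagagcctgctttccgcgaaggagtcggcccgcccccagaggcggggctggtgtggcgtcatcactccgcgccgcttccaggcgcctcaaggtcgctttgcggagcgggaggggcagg
Ndufa4: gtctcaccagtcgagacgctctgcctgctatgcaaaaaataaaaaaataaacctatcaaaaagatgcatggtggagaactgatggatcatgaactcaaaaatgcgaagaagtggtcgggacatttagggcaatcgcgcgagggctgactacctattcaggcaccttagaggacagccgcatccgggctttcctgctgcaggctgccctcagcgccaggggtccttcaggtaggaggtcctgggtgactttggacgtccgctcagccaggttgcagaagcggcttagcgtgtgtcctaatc

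The window of Ndufb4 holds 3 NRF1 matches, that of Ndufs6 an NRF1 and a YY1 match, that of Ndufb6 an ETS match, and that of Ndufa4 none of the 4 motifs. Over the 40 genes, 27.5% had an NRF1 match against 15.5% of the 9607 tested genes with a window, 25% a YY1 match against 9.53%, 15% an ETS match against 20.4%, and 22.5% an antioxidant response match against 17%. At least 1 of the NRF1, ETS and YY1 motifs stood in 24 of the 40, or 60%, against 38.4%. Of the genes that rose, Ndufa8 also had an NRF1 match, and Ndufb11 and Ndufc2 had none of the 4. These counts describe letters in a window and say nothing of binding.

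A list of regulators of mitochondrial genes was read from the same fit, with no gene for the antioxidant response element. Of Nrf1, Gabpa, Gabpb1, Yy1, Tfam, Esrra and Ppargc1a, the last being a coactivator of mitochondrial biogenesis, 0 of 7 passed in limma, against 10.9% of all tested genes. Their median log2 fold change was 0.00 as deposited and -0.08 at equal library totals. Only Ppargc1a had an unadjusted p under 0.05, at 4.81, 4.88 and 4.28 FPKM in Mock and 4.13, 3.68 and 3.93 FPKM in Quinpirole (log2 fold change -0.20, adjusted p = 0.101). Its Quinpirole values all lay below its Mock values, as they did for 16.9% of all tested genes.

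Other parts of the enzyme and chain were read from the same fit, in which 5.74% of all tested genes rose and 5.18% fell. Of 11 tested assembly factors without an Nduf name, Tmem126a alone rose (log2 fold change 0.29, adjusted p = 0.0412), with a median of 0.10 over the list. After the length correction Tmem126a was at 0.22 (adjusted p = 0.0984 in limma). After quantile normalization and at equal library totals 0 of the 11 passed. Of the 7 complex I subunits encoded by mitochondrial DNA, 6 rose, with a median of 0.27, and their summed FPKM was 4754, 5029 and 5087 in Mock and 6020, 6101 and 6157 in Quinpirole. After the length correction 3 of those 7 rose, after quantile normalization 2, and with length and GC content corrected 1. In these fits 2.2%, 2.31% and 1.42% of all tested genes rose, and 4.24%, 6.39% and 2.79% were called in either direction. Among the nuclear subunits, 0 of 4 in complex II, 3 of 9 in complex III, 3 of 13 in complex IV and 6 of 15 in complex V rose and 0 fell. Of the 36 nuclear complex I subunits 7 rose. Ndufa4 was in none of these lists. The medians were 0.11, 0.14, 0.17 and 0.19 for complexes II to V, and the 0.17 of complex I lay within their range. After the length correction 2 of the 36 rose, with 0, 0, 2 and 2 in complexes II to V, against 2.2% of all tested genes. With the principal transcript length 0 rose in each of these complexes, against 1.13%. At equal library totals 3 of the 7 mitochondrially encoded subunits rose, and 0, 0, 2 and 3 of the genes of complexes II, III, IV and V. On that scale 220 of the 12255 tested genes rose. For complex II, 2 of the 4 were higher at an unadjusted p under 0.05 as deposited, against 17.3% of all tested genes.

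All 9 astrocyte markers were expressed, with sums of 1435 to 1598 FPKM in Mock and 1436 to 1463 in Quinpirole. Of them 2 fell, Slc1a2, the glutamate transporter (log2 fold change -0.42, adjusted p = 0.0297), and Atp1b2, which carries the ACSA-2 epitope (174, 180 and 179 FPKM in Mock and 160, 148 and 160 FPKM in Quinpirole, log2 fold change -0.19, adjusted p = 0.0382). Of the 9, 4 fell at equal library totals and after quantile normalization, 1 after the length correction and 0 with length and GC content corrected. Over all tested genes 5.18% fell as deposited and 1236 of 12255 at equal library totals. After quantile normalization 4.08% of them fell, after the length correction 2.04% and with length and GC content corrected 1.37%. The 6 neuron markers summed to 17.6 to 19.7 FPKM in Mock and 20.5 to 23.6 in Quinpirole, nearly all of it Tubb3, while Rbfox3 and Snap25 were at or below 0.0773 FPKM in every library. The 5 microglia markers summed to 124 to 132 and 119 to 124 FPKM, and 0 of them passed the threshold as deposited. After quantile normalization 1 of them fell (4.08% of all tested genes), and at equal library totals 2 fell (1236 of 12255 tested genes). Of the 3 ependymal markers Foxj1 was at 118 to 130 FPKM in all libraries whereas Ccdc153 and Tmem212 were at or below 1.34. Oligodendrocyte, precursor and endothelial sums were at most 5.12 FPKM. The part of these shifts in the Nduf values was not tested.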

How the data were processed

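The authors sequenced poly(A) RNA of 6 libraries, mapped reads to GRCm38 with TopHat2 (per the labels, no version given) and deposited 1 FPKM value per Ensembl gene and library. The program and annotation behind FPKM are not given in the sources used here. Depth is not recorded. Steps in low values put it at 22300000 to 27800000 fragments, but only 55% to 63.7% of those values fell within 0.1 of whole reads, so no counts were recovered. Symbols, lengths and transcripts came from GENCODE M21 on GRCm38 and promoters from RefSeq. Genes with a mean of at least 1 FPKM were fitted as log2(FPKM + 1) in limma 3.58.1 (R 4.3.3; lmFit, eBayes with trend, two-sided), with Benjamini-Hochberg adjustment over 12255 genes at 0.05, after tests on simulated data. The loess length correction (span 0.3) acted on each library's deviation from the gene mean. Shared words were 50 bases long, were taken from every position of the principal transcript and were matched on either strand.

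The members and lists were chosen with earlier results of these data known. Core subunits, assembly factors, genes past the threshold before or after length correction, the 2 highest and 2 lowest means, genes with a lower mean, Ndufa4 and Ndufa4l2 were named by rule, and 1 member, counted throughout, is not reported by itself here. Alternatives were other pseudocounts, filters, scalings, eBayes settings, the block, length and GC terms, and each library left out. Scaling to equal totals, the principal transcript length and the length correction with a library left out were added after seeing the data.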

Additional observations from a re-analysis of the deposited data

How the results depend on the processing

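FPKM keep no counting error and no reads to divide among overlapping or near-identical genes, and 3 libraries a group limit what a single gene can show. The number of Nduf genes past the threshold went from 8 (of 1339 genes) to 4 without a filter on low values (633 genes), 4 after quantile normalization (783), 4 at equal library totals (1456), 4 without the eBayes trend (714), 3 after the length correction (519), 1 with the principal transcript length (282) and 2 with length and GC (342). It was 8 with a pseudocount of 0.1 (1313 genes), 10 with a minimum of 5 FPKM (1428), 7 with median ratio scaling (1273) and 10 with robust eBayes (1549). With the replicate number as a block it was 0 of 2 genes, with 17 of 45 Nduf genes and 27% of all genes at an unadjusted p under 0.05, and with block and length correction 0 of 0 genes, with 9 of 45 and 22.3%. The labels do not say that the replicate number marks a shared batch or animal, deviations from the group means correlated at 0.026, -0.066 and -0.10 between same-numbered libraries, and no library correlated best with its own number. Leaving out 1 library gave 0 to 13 Nduf genes (3 to 1215 genes), and after the length correction 0 to 1 (number over all genes not given here). Mock 3 and Quinpirole 3 were the libraries without which Nduf genes still passed as deposited, and Mock 3 after the length correction. The other respiratory lists had 19 genes called as deposited, 6 without a filter, 4 after quantile normalization, 8 at equal totals, 7 without the trend, 7, 3 and 3 after the length, principal transcript length and length with GC corrections, 0 under either block and 0 to 23 with a library left out.

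The median log2 fold change of 0.16 was 0.076 at equal totals, 0.058 after the length correction (also with the block), 0.038 with the principal transcript length and 0.072 with length and GC, and ran from 0.12 to 0.20 without 1 library (0.052 to 0.092 after the length correction). Separated genes numbered 12 at equal totals, 12 after the length correction, 11 with the principal transcript length (15.9% of all genes) and 19 to 34 without 1 library (23.7% to 27.9% of all genes), and those with a higher mean 29 with the principal transcript length and 42 to 45 without 1 library. The difference of summed FPKM on the log2 scale was 0.18, and 0.10 after quantile normalization.

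Of 454 values of the 24 named genes under an alternative, 318 kept direction and side of the threshold, 90 lost and 2 gained the threshold, and 44 changed sign. In the order length, principal transcript length, length with GC and block with length, Ndufa7 was at -0.0061, -0.056, -0.0089 and -0.0061, Ndufaf1 at -0.032, -0.017, -0.052 and -0.032, Ndufaf3 at -0.077, -0.073, -0.043 and -0.077, Ndufaf6 at -0.029, -0.028, -0.029 and -0.029, Ndufaf8 at -0.041, -0.038, -0.011 and -0.041, and Ndufs8 at -0.042, -0.047, -0.016 and -0.042. Ndufs7 was at -0.036 after length correction with or without the block and at -0.060 with the principal transcript length, with which Ndufaf2 was at -0.024, Ndufv1 at -0.0005 and Ndufaf4 at 0.0012. After quantile normalization Ndufa7 was at -0.0091, Ndufs7 at -0.014 and Ndufaf4 at 0.034. At equal totals Ndufaf3 was at -0.055, Ndufs7 at -0.014 and Ndufs8 at -0.0023. Without 1 library Ndufaf3 ran from -0.026 to 0.096, Ndufaf4 from -0.11 to 0.084 and Ndufaf6 from -0.011 to 0.20. The causes were not tested.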
